A study of Homo sapiens with 15 samples.

Results

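The 31 genes described here make cholesterol, move and store it, sense its level, and send it out of the cell. They were chosen as a list of gene symbols, and all 31 were found among the 60670 genes of the count table. The list holds 19 enzymes of synthesis (8 from acetyl-CoA to the isoprenoid diphosphates and 11 from squalene to cholesterol), 2 genes of sterol movement and storage (STARD4, SOAT1), 5 genes of sterol sensing (SCAP, INSIG1, INSIG2, SREBF1, SREBF2), the 2 liver X receptors (NR1H2, NR1H3) and 3 genes that these receptors drive (ABCA1, ABCG1, MYLIP). All 31 passed the filter on low counts, ABCG1 through the libraries of 1 group alone.

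Poly(A) RNA of HT-1080, an established human fibrosarcoma line, was sequenced in 5 groups of 3 libraries. The cycling group was given DMSO, the vehicle, for 6 h. The other groups were made senescent by expressing a dominant negative TRF2 (gene TERF2), a mutant of a protein that shields chromosome ends, for 6 days. They then received DMSO or GNF-7, an inhibitor of tyrosine kinases, at 1 uM for 6 h or 24 h. All groups were of this 1 line and were grown in serum free of tetracycline. The labels do not say whether the cycling cells carried the TRF2 construct, and no cycling group received GNF-7 or was collected at 24 h. The series title names the kinase GCN2 as the protein through which GNF-7 acts on senescent cells. Titles call the libraries of a group biological replicates and say no more of their origin, so p-values measure the spread between these libraries.

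Cells balance cholesterol through opposing programmes. When sterols are scarce in the endoplasmic reticulum, SCAP carries the precursors of the SREBP transcription factors (genes SREBF1 and SREBF2) to the Golgi, where they are cut and released to switch on the synthesis enzymes. INSIG1 and INSIG2 hold SCAP back when sterols are plentiful, and INSIG1 is itself switched on by SREBP. When oxysterols accumulate, the liver X receptors (LXR) switch on the exporters ABCA1 and ABCG1 and the ubiquitin ligase MYLIP, which marks lipoprotein receptors for destruction.

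Total counts ran from 25991007 to 32323393 a library. Levels are given as CPM, the usual depth-scaled unit for counts, with library sizes adjusted by TMM. They are relative to the other RNA of a library, and the amount of RNA per cell was not measured. Comparisons are given as log2 fold changes with a standard error (SE). The SE was derived as the size of the log2 fold change over the square root of the edgeR F statistic. Where libraries are said to overlap or not, this only describes them. The share of all genes without overlap was computed only for GNF-7 at 24 h against senescent vehicle 6 h and against cycling cells. Against senescent vehicle 6 h, 31.5% of all genes lay lower and 34.3% higher without overlap. Of 10 mesenchymal markers, 9 had more than 3 counts in a library of every group and summed to 4602 to 6486 CPM, whereas THY1 was at 0 in every library. The marker lists of epithelial, blood, endothelial, hepatocyte, adipocyte and macrophage cells each summed to at most 9.96 CPM in any library. With GNF-7 at 24 h the mesenchymal sum was lower than in its vehicle (4602 to 4890 against 5909 to 6486 CPM) and the epithelial sum higher (3.92 to 5.61 against 1.12 to 1.55 CPM, with CLDN3 at 0 in both), and their part in the results was not tested. The 4 proliferation markers MKI67, TOP2A, CCNB1 and RRM2 moved with the groups. They summed to 1548 to 1668 CPM in cycling vehicle, 389 to 410 in senescent vehicle 6 h, 312 to 324 with GNF-7 at 6 h, 337 to 352 in vehicle 24 h and 122 to 131 with GNF-7 at 24 h. The share of counts from the 37 mitochondrial genes also moved with the groups, with means of 4.32%, 11.7%, 14.1%, 16.9% and 23.3% in that order. The part of either in the results below was not tested. In bulk libraries, fewer cells that express a gene and less of its RNA per cell cannot be told apart.

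Promoters of the genes whose levels the results turn on are printed here so that the elements of the opposing programmes can be seen. The RefSeq table (GRCh38.p14) held 27 of the 31 genes, and the 250 bases before each start were searched on both strands. ACAT2, FDFT1, SQLE and ABCG1 had no entry in it. Searched were a core of the sterol regulatory element (TCACNCCAC, bound by SREBP), the NF-Y box (CCAAT), and the LXR direct repeat (AGGTCA again after 4 bases, with up to 2 mismatches over both copies). The core TCACNCCAC, for which no mismatch was allowed, was found in 1 of the 27 genes, SREBF2, at -133 to -125 from the start. It was found in 0 of the 16 synthesis genes with an entry and in 1.09% of all 27305 genes of the table. Elements that differ from this core are missed by the search, so a gene without a match may still hold one. The NF-Y box was found in 20 of the 27 genes and in 14 of the 16 synthesis genes with an entry (87.5%), all but PMVK and CYP51A1, against 37.0% of all genes. MVK and NSDHL had 5 such boxes each and MSMO1 had 4. The LXR repeat was found in ABCA1 alone, at -69 to -54 on the strand opposite to the gene with 2 mismatches, and in 2.53% of all genes. These are matches of letters in 1 window per start, and factor binding was not measured. Each line gives the 250 bases before the start on the gene's strand, with capitals for the sterol regulatory core and NF-Y boxes in SREBF2 (chr22:41832855-41833104, plus strand), the NF-Y boxes in INSIG1 (chr7:155297628-155297877, plus strand) and MSMO1 (chr4:165327419-165327668, plus strand), and the LXR repeat in ABCA1 (chr9:104928156-104928405, minus strand).
SREBF2: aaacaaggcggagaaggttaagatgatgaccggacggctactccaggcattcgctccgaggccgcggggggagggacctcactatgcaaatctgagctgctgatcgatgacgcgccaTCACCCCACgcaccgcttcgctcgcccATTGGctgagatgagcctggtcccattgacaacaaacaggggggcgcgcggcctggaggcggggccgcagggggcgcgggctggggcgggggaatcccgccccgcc
INSIG1: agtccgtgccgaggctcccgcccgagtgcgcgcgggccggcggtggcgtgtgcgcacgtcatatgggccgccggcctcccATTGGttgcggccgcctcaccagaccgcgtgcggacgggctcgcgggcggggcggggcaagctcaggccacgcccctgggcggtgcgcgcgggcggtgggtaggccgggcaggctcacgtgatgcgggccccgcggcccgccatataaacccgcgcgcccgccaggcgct
MSMO1: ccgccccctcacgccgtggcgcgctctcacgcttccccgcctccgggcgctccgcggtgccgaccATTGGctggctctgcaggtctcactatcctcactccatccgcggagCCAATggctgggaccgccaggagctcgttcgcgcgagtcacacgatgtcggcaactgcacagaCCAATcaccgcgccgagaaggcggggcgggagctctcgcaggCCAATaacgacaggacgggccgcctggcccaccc
ABCA1: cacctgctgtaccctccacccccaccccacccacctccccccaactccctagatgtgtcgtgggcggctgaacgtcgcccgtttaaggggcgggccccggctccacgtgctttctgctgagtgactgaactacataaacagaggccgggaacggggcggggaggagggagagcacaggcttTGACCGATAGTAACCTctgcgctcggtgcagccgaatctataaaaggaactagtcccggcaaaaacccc

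Senescent libraries had lower relative levels of nearly every synthesis enzyme's RNA than cycling ones and a higher level of the exporter ABCA1. Of the 19 synthesis genes, 17 were lower in senescent vehicle at 6 h, none was higher, and GGPS1 and TM7SF2 did not pass the test. Their median log2 fold change was -1.01, against 0.06 over all genes tested. Of all 31 genes, 23 were called lower and 2 higher (ABCA1 and NR1H2), where 34.4% of all genes were called lower, 35.6% higher and 70.0% either way (edgeR quasi-likelihood test, adjusted p under 0.05). At least 2-fold lower were 12 of the 31, where 7.56% of all genes tested were. Summed over the 19 enzymes, cycling libraries held 1403 ± 33.2 CPM (SD, n = 3) and senescent vehicle 6 h libraries 658 ± 29.1.

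Among enzymes of the first arm, ACAT2 (acetoacetyl-CoA thiolase, chr6:159760328-159779055 in GENCODE 29 on GRCh38) had the largest fall of the synthesis genes. Its 3 cycling libraries held 107, 115 and 115 CPM and its senescent ones 27.5, 26 and 26.4 (log2 fold change -2.08, SE 0.056, edgeR adjusted p 1.18e-40), a 4.23-fold fall with no overlap. HMGCS1, which makes hydroxymethylglutaryl-CoA (chr5:43289395-43313512), held 134, 141 and 141 CPM in cycling and 48.0, 43.8 and 46.6 in senescent cells (-1.59, SE 0.051, adjusted p 7.56e-37). IDI1, the isopentenyl diphosphate isomerase, held 98.7, 103 and 102 against 33.7, 33.2 and 35.2 CPM (-1.57, adjusted p 2.43e-35). Neither gene had libraries that overlapped between the groups. FDPS, which makes farnesyl diphosphate, MVK and PMVK, the kinases of mevalonate and phosphomevalonate, and MVD, the decarboxylase that follows them, fell by 1.29, 1.01, 0.63 and 0.52 on the log2 scale. GGPS1, which leads farnesyl diphosphate away from sterols, was the exception of this arm. It held 9.93, 10.9 and 11.8 CPM in cycling and 13.4, 12.1 and 11.4 in senescent cells, with overlap (0.17, adjusted p 0.11).

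In the squalene arm, FDFT1, the squalene synthase that commits farnesyl diphosphate to sterols, held 158, 171 and 164 CPM in cycling and 71.2, 70.8 and 68.4 in senescent cells (-1.23, SE 0.043, adjusted p 5.96e-35). SQLE, the squalene epoxidase, held 96.2, 96.9 and 98.0 against 41.7, 34.7 and 40.2 CPM (-1.32, SE 0.065, adjusted p 3.69e-22). DHCR7, which carries out a last reduction on the way to cholesterol, held 129, 137 and 129 against 83.1, 66.7 and 73.2 CPM (-0.83, SE 0.078, adjusted p 5.42e-08). Every cycling library lay above every senescent one for all 3. The share of all genes without overlap was not computed here, and 34.4% of all genes were called lower. The fall ran through the later steps with unequal size: EBP, the sterol isomerase, fell by 1.62, MSMO1, the methylsterol oxidase, by 1.10, HSD17B7 and NSDHL, which act with it on the methyl groups, by 0.86 and 0.73, and LSS (lanosterol synthase) and SC5D (a sterol desaturase) by 0.48 each. CYP51A1, the lanosterol demethylase, fell by 1.33 from a low level, and most of its exons overlap another gene on the same strand, so its counts are uncertain. TM7SF2, a sterol reductase whose step LBR can also perform, held 7.60, 6.95 and 7.80 CPM in cycling and 7.22, 8.11 and 6.42 in senescent cells, which overlapped (-0.04, adjusted p 0.826).

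Sensing genes divided by paralog. INSIG1 (chr7:155297776-155310235) held 92.9, 96.8 and 96.7 CPM in cycling and 27.6, 23.1 and 26.8 in senescent cells, a 3.70-fold fall (-1.89, SE 0.061, adjusted p 3.85e-36). INSIG2, its paralog, held 39.1, 42.6 and 39.9 CPM against 39.0, 38.8 and 39.7 and was not called (-0.05, adjusted p 0.495). SREBF2, which encodes the SREBP most tied to cholesterol synthesis (chr22:41833079-41907308), held 278, 285 and 292 CPM in cycling and 189, 168 and 176 in senescent cells (-0.68, SE 0.041, adjusted p 2.96e-22). SREBF1, whose product is known more for fatty acid synthesis, held 117, 120 and 117 against 104, 103 and 98.6 CPM (-0.21, adjusted p 2.31e-05), without overlap. SCAP fell by 0.16 (adjusted p 0.00097). The calls of SREBF1 and SCAP were lost when libraries were scaled by total counts (-0.08 and -0.03). That scaling moved the median of all genes by 0.13. Both calls were also lost when genes under a mean of 5 CPM were filtered out (-0.06 and -0.01), which moved that median by 0.15.

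For movement and storage, STARD4, a carrier of sterols between membranes, held 67.7, 72.3 and 73.1 CPM in cycling and 25.2, 26 and 26.1 in senescent cells (-1.46, SE 0.058, adjusted p 4.04e-32). SOAT1, which stores cholesterol as esters, held 94.7, 103 and 99.4 against 66.3, 63.8 and 66 CPM (-0.60, adjusted p 1.52e-18). Both were thus lower in all 3 senescent libraries.

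On the efflux side ABCA1, the pump that loads cholesterol onto apolipoproteins (chr9:104781002-104928237, minus strand), held 7.80, 8.26 and 10.3 CPM in cycling and 28.5, 30.4 and 28.7 in senescent cells, a 3.30-fold rise (1.72, SE 0.081, adjusted p 3.93e-28). ABCG1, which exports to lipoprotein particles, had 1, 1 and 0 counts in the cycling libraries and 6, 0 and 1 in the senescent ones. The ratio of its pooled counts was 3.26 (exact conditional 95% interval 0.621 to 32.2, counting error only) and it was not called (adjusted p 0.265). MYLIP held 12.4, 12.0 and 12.9 against 12.4, 13.1 and 13 CPM (0.05, adjusted p 0.669), but it was called when genes under a mean of 5 CPM were filtered out (0.20, adjusted p 0.0464), which moved the median of all genes by 0.15. Of the receptors, NR1H2 was higher (75.7 ± 3.77 to 90.5 ± 3.08 CPM, 0.26, adjusted p 8.19e-07). NR1H3 held 6.11, 5.96 and 5.22 CPM against 6.03, 5.24 and 6.10 (0.01, adjusted p 0.962).

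**Figure D1:**
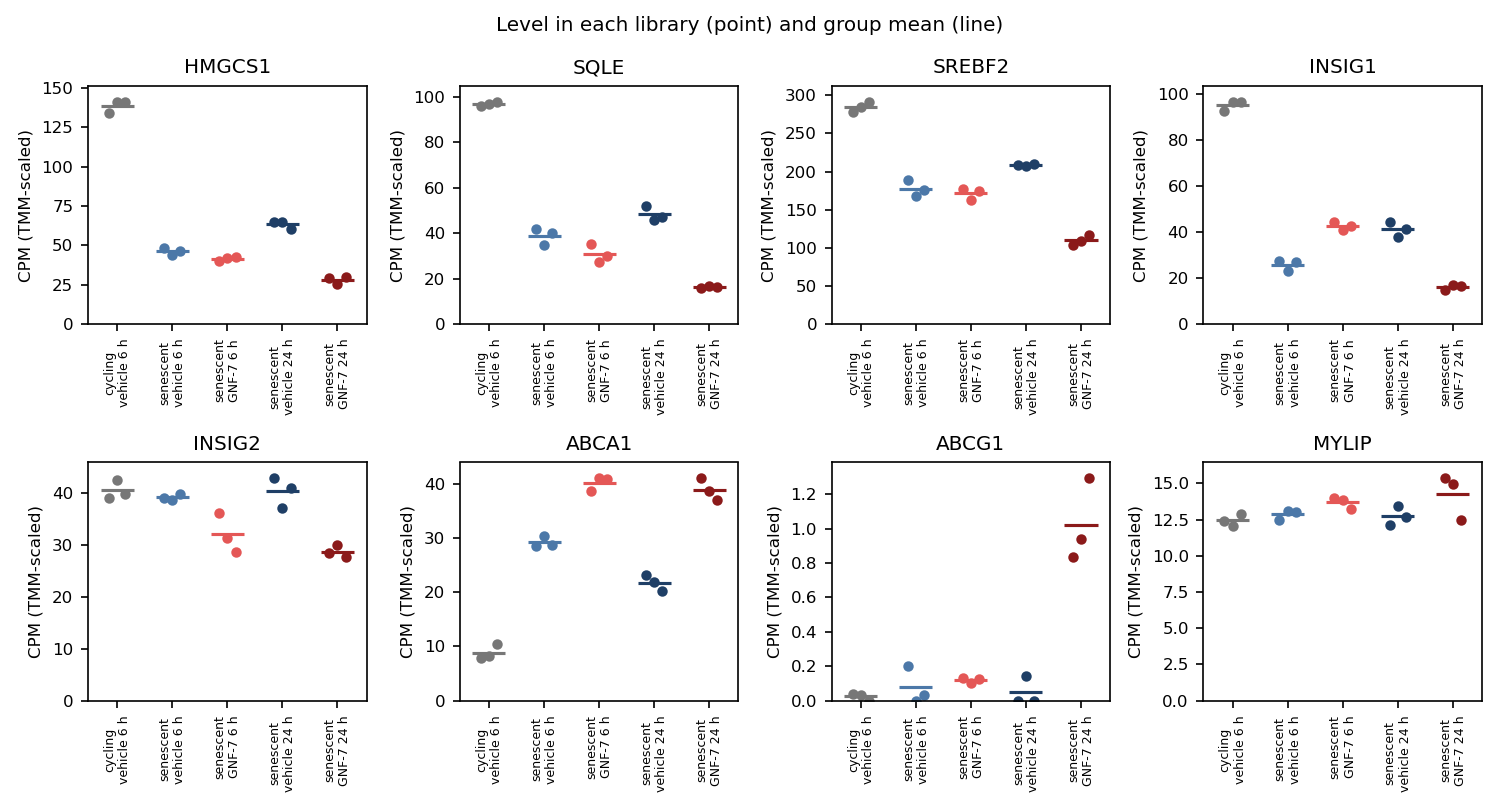
CPM of HMGCS1, SQLE, SREBF2, INSIG1, INSIG2, ABCA1, ABCG1 and MYLIP (vertical axes from 0) in each of the 3 libraries of the 5 groups, with a bar at the group mean. INSIG1 is the panel in which GNF-7 libraries lie above their vehicle at 6 h (42.6 against 25.9 CPM) and below it at 24 h (16.1 against 41.4 CPM), while ABCA1 lies above its vehicle at both times.

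GNF-7 for 6 h left most of the synthesis genes near their vehicle level. Of the 19, 4 were called higher (ACAT2, FDFT1, MSMO1, HSD17B7), 3 lower (HMGCS1, SQLE, NSDHL) and 12 did not pass the test, and their median log2 fold change was 0.03 against 0.01 over all genes. Of the 31 genes 7 were called higher and 5 lower, where 17.9% of all genes were called higher, 21.4% lower and 39.3% either way, so the share called was near the background. The sum over the 19 enzymes was 659 ± 7.04 CPM with GNF-7 and 658 ± 29.1 in vehicle. The largest called changes of the whole list lay outside synthesis, in INSIG1 and ABCA1.

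INSIG1 held 44.5, 40.8 and 42.7 CPM with GNF-7 at 6 h, above all 3 vehicle libraries (27.6, 23.1 and 26.8), a 1.65-fold rise (0.72, SE 0.063, edgeR adjusted p 4.82e-15). INSIG2 held 36.2, 31.3 and 28.7 CPM, below all 3 vehicle libraries at 39.0, 38.8 and 39.7 (-0.29, SE 0.065, adjusted p 0.000222). The paralogs therefore moved in opposite directions. SREBF2 held 177, 163 and 175 CPM and overlapped its vehicle at 189, 168 and 176 (-0.05, adjusted p 0.386). SREBF1 held 106, 115 and 111 CPM against 104, 103 and 98.6 (0.12, adjusted p 0.0253), and SCAP fell by 0.17 (adjusted p 0.0016). The last were changes of 1.09-fold and 1.13-fold.

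ABCA1 held 38.6, 41.0 and 40.8 CPM with GNF-7 at 6 h and 28.5, 30.4 and 28.7 in vehicle, a 1.37-fold rise (0.46, SE 0.068, adjusted p 9.02e-08) with no overlap. MYLIP held 14, 13.9 and 13.2 CPM against 12.4, 13.1 and 13. Its libraries did not overlap, but it was not called (0.09, adjusted p 0.474). ABCG1 had 4, 3 and 4 counts against 6, 0 and 1, a pooled ratio of 1.56 (0.552 to 4.74, counting error only). It was not called in the edgeR fit (adjusted p 0.64), and so few counts leave a wide interval. NR1H3 held 5.67, 7.47 and 6.36 CPM, which overlapped its vehicle (0.17, adjusted p 0.36), as did NR1H2 (-0.03, adjusted p 0.591).

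Within synthesis, FDFT1 had the rise with the smallest p at 6 h, with 84.4, 79.1 and 82.0 CPM against 71.2, 70.8 and 68.4 (0.22, SE 0.044, adjusted p 2.49e-05). HSD17B7 had the largest rise, with 11.2, 11.4 and 10.8 CPM against 7.91, 9.98 and 8.01 (0.37, SE 0.108, adjusted p 0.00448). SQLE, next in the pathway after FDFT1, had the largest fall, with 35.5, 27.4 and 30.2 CPM against 41.7, 34.7 and 40.2 (-0.32, SE 0.069, adjusted p 0.000175). The neighbouring enzymes FDFT1 and SQLE thus went opposite ways, FDFT1 without and SQLE with overlap between its libraries. HMGCS1 held 40.0, 42.0 and 42.4 CPM against 48.0, 43.8 and 46.6 (-0.15, adjusted p 0.0176). IDI1 held 34.8, 34.6 and 32 CPM (-0.01, adjusted p 0.902) and DHCR7 72.5, 65.7 and 70.5 (-0.09, adjusted p 0.397), both overlapping vehicle. STARD4 (23.4, 24.1 and 24.0 CPM, -0.11, adjusted p 0.144) and SOAT1 (67.5, 66.3 and 65.1 CPM, 0.02, adjusted p 0.758) were not called. Several of the small calls were lost when 1 library was left out. That of ACAT2 was lost without vehicle 6 h replicate 2 (0.14) or 3 (0.15), or replicate 1 of GNF-7 6 h (0.10), and that of MSMO1 without any of these 3 (0.12, 0.15 and 0.09) or vehicle 6 h replicate 1 (0.15). That of HMGCS1 was lost without vehicle 6 h replicate 1 (-0.12) or 3 (-0.15), or replicate 1 of GNF-7 6 h (-0.13), that of SCAP without vehicle 6 h replicate 1 (-0.11) and that of NSDHL without vehicle 6 h replicate 3 (-0.19). That of SREBF1 was lost without replicate 3 of vehicle 6 h (0.10) or replicate 2 (0.10) or 3 (0.12) of GNF-7 6 h. The list then held 4 genes called higher and 3 lower without vehicle 6 h replicate 3, and 3 lower without vehicle 6 h replicate 1. With all libraries, the calls of ACAT2 (0.14), MSMO1 (0.12) and SREBF1 (0.10) were lost with no filter on low counts. HMGCS1 lost its call when genes under a mean of 5 CPM were filtered out (-0.10), and MSMO1 also lost its call with limma voom (0.13).

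At 24 h most synthesis genes were lower with GNF-7 and the pump ABCA1 was higher. Of the 19 synthesis genes, 16 were lower than in vehicle at 24 h, GGPS1 and TM7SF2 were higher and PMVK did not pass the test. Their median log2 fold change was -0.90, against 0.04 over all genes. Of the 31 genes, 22 were called lower and 5 higher (ABCG1 among them, admitted by this group alone), where 29.7% of all genes were called lower, 29.3% higher and 58.9% either way. At least 2-fold lower were 9 of the 31, where 3.92% of all genes were. The sum over the 19 enzymes was 475 ± 5.32 CPM with GNF-7 against 828 ± 15.8 in vehicle.

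**Figure D2:**
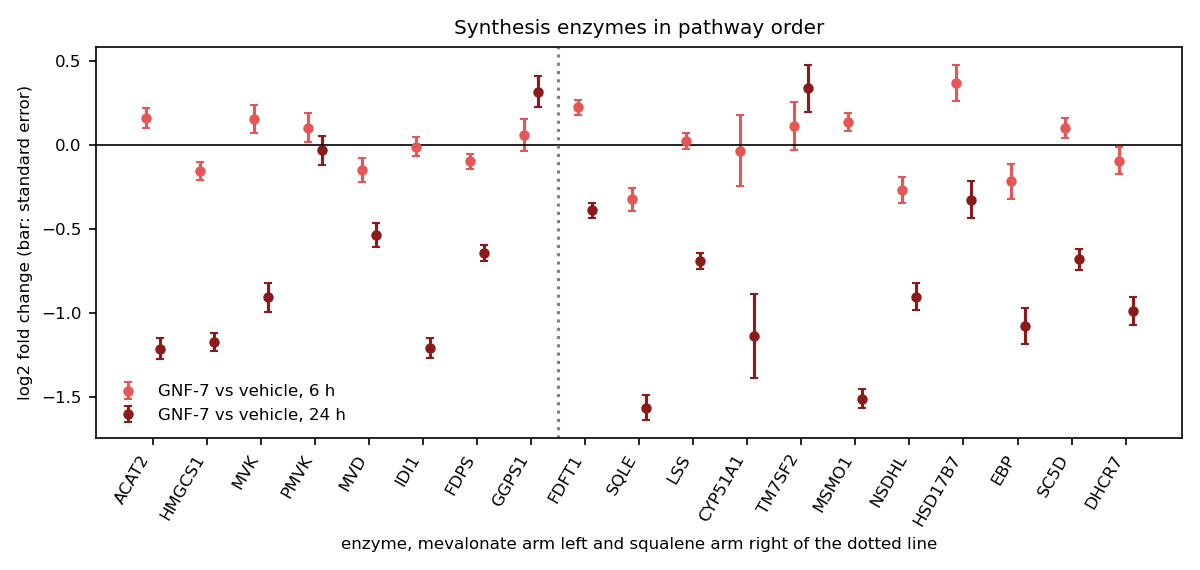
Log2 fold change with GNF-7 of the 19 synthesis genes in pathway order, at 6 h and at 24 h, each against its own vehicle. Points carry bars of ± 1 SE, derived from the edgeR F statistic. The points at 6 h lie between -0.32 (SQLE) and 0.37 (HSD17B7) around a median of 0.03, and those at 24 h between -1.56 (SQLE) and 0.34 (TM7SF2) around a median of -0.90.

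SQLE had the largest fall of the synthesis genes at 24 h, from 52.2, 45.8 and 47.2 CPM in vehicle to 16.0, 17.0 and 16.3, a 2.95-fold fall (-1.56, SE 0.073, edgeR adjusted p 2.04e-22). MSMO1, whose promoter is printed above, went from 82.8, 71.2 and 77.0 CPM to 28.1, 25.8 and 27.3 (-1.51, SE 0.057, adjusted p 1.15e-31). HMGCS1 went from 65.0, 64.9 and 60.4 CPM to 29.3, 25.4 and 29.7 (-1.17, SE 0.055, adjusted p 6.81e-28). Each group of 3 was tight and lay clear of the other for these 3 enzymes, which act early, midway and late in the pathway. ACAT2 went from 37.1, 38.5 and 36.6 CPM to 16.2, 15.5 and 16.8 (-1.21, adjusted p 1.15e-25) and IDI1 from 45.3, 46.0 and 47.1 to 21.5, 18.6 and 19.7 (-1.21, SE 0.059, adjusted p 5.34e-27). DHCR7 went from 93.7, 77.6 and 81.3 CPM to 38.9, 43.4 and 45.5 (-0.99, SE 0.083, adjusted p 1.86e-08). EBP, CYP51A1, MVK, NSDHL, LSS, SC5D, FDPS and MVD fell by 1.08, 1.14, 0.91, 0.90, 0.69, 0.68, 0.64 and 0.53 on the log2 scale. FDFT1, between FDPS and SQLE in the pathway, fell less, from 91.8, 91.3 and 93.5 CPM to 69.7, 71.7 and 69.7 (-0.39, adjusted p 9.46e-12).

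GGPS1, PMVK and TM7SF2 did not follow the other enzymes. GGPS1 rose from 16.0, 13.4 and 14.5 CPM to 19.1, 17.2 and 18.6 (0.32, SE 0.092, adjusted p 0.00237), without overlap. Part of its exons overlap TBCE on the same strand and ARID4B on the other strand, so its counts are uncertain. PMVK held 16.4, 16.4 and 13 CPM in vehicle and 16.0, 14.5 and 14.4 with GNF-7 (-0.03, adjusted p 0.765). TM7SF2 held 6.86, 8.11 and 6.93 CPM in vehicle and 6.51, 10.7 and 10.4 with GNF-7 (0.34, SE 0.141, adjusted p 0.0367), with overlap. The call of TM7SF2 was lost with DESeq2 (0.33) and limma voom (0.31), without replicate 1 (0.29) or 3 (0.30) of vehicle 24 h, and without replicate 2 (0.21) or 3 (0.24) of GNF-7 24 h. HSD17B7 was lower (9.79, 9.31 and 10.3 CPM against 6.98, 7.83 and 8.63, -0.33, adjusted p 0.00949), a call that was lost without GNF-7 24 h replicate 1 (-0.25) and when genes under a mean of 5 CPM were filtered out (-0.22).

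All 5 sensing genes were called lower with GNF-7 at 24 h, where 29.7% of all genes were. INSIG1 went from 44.5, 38.0 and 41.6 CPM in vehicle to 14.9, 16.9 and 16.6 with GNF-7, a 2.56-fold fall (-1.36, SE 0.067, adjusted p 1.85e-26), where at 6 h it had risen. SREBF2 went from 209, 207 and 210 CPM to 103, 110 and 117, a 1.90-fold fall (-0.92, SE 0.043, adjusted p 1.89e-27). SREBF1 went from 88.8, 86.5 and 95.4 CPM to 66.8, 71.5 and 75.4 (-0.34, adjusted p 2.57e-09). None of these groups overlapped. INSIG2 went from 42.9, 37.1 and 41.1 CPM to 28.4, 29.9 and 27.7 (-0.49, SE 0.066, adjusted p 2.43e-09), and SCAP fell by 0.37 (adjusted p 2.91e-10). STARD4 fell from 38.6, 37.5 and 39.0 CPM to 17.9, 17.2 and 17.0 (-1.14, SE 0.062, adjusted p 1.09e-24). SOAT1 rose slightly, from 56.8, 56.6 and 55.8 CPM to 62.1, 60.4 and 63.3 (0.13, adjusted p 0.0124). SOAT1 was no longer called with no filter on low counts (0.11) or without GNF-7 24 h replicate 3 (0.12).

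ABCA1 went from 23.2, 21.8 and 20.2 CPM in vehicle at 24 h to 41.0, 38.7 and 37.0 with GNF-7, a 1.79-fold rise (0.84, SE 0.071, adjusted p 3.06e-16). ABCG1 had 0, 4 and 0 counts in the vehicle libraries and 25, 29 and 39 with GNF-7. The ratio of its pooled counts, 93 against 4, was 21.9 (exact conditional 95% interval 8.27 to 82.0, counting error only). It passed the filter on low counts through these GNF-7 24 h libraries alone, so its edgeR call (adjusted p 2.18e-06) is given as a description and supports nothing. All 4 vehicle counts came from vehicle 24 h replicate 2. Its level with GNF-7, 0.835, 0.942 and 1.29 CPM, was far below that of ABCA1. MYLIP held 12.1, 13.4 and 12.7 CPM in vehicle and 15.4, 15 and 12.5 with GNF-7, with overlap, and was not called (0.17, adjusted p 0.114). It was called without GNF-7 24 h replicate 3 (0.26, adjusted p 0.0244), and with all libraries when genes under a mean of 5 CPM were filtered out (0.27, adjusted p 0.00806). NR1H3 held 5.46, 7.02 and 4.91 CPM in vehicle and 5.91, 6.46 and 6.77 with GNF-7 (0.14, adjusted p 0.407), and NR1H2 was not called (-0.04, adjusted p 0.437).

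**Figure D3:**
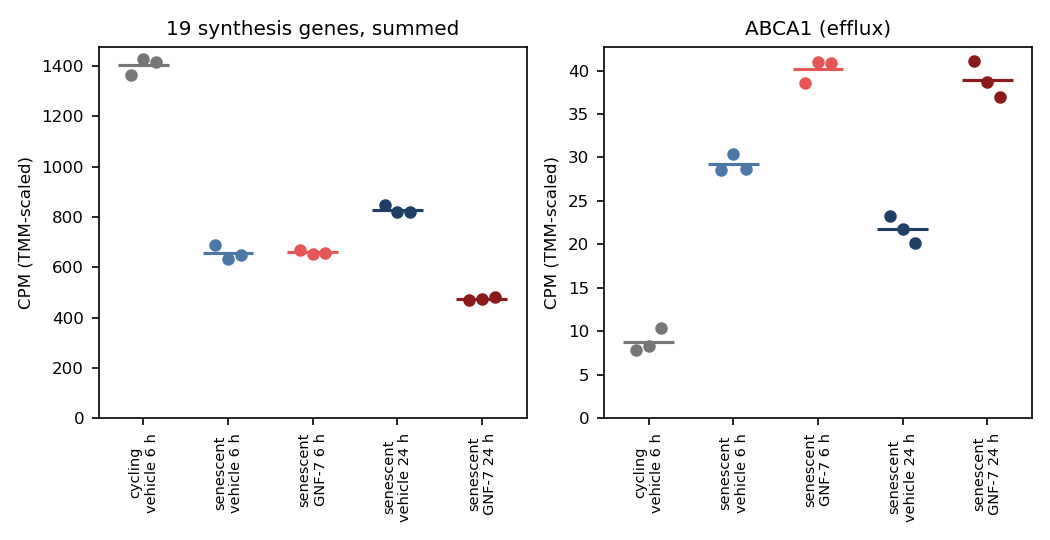
Summed CPM of the 19 synthesis genes (left) and CPM of ABCA1 (right) in each library of the 5 groups, with a bar at the group mean and axes from 0. The synthesis sum is highest in cycling cells (1365 to 1427 CPM) and lowest with GNF-7 at 24 h (470 to 481 CPM), while ABCA1 is lowest in cycling cells (7.80 to 10.3 CPM) and high with GNF-7 at both times (37.0 to 41.0 CPM).

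The effect of GNF-7 differed between the times for most of the list. In the test of the difference (24 h effect minus 6 h effect), 21 of the 31 genes were called lower and 2 higher (ABCA1, and ABCG1, which only the GNF-7 24 h libraries admitted to the test), where 18.0% of all genes were called lower, 12.8% higher and 30.8% either way. Of the 19 synthesis genes 16 were called lower, none was higher, and PMVK, GGPS1 and TM7SF2 did not pass the test, with a median difference of -0.78 against -0.00 over all genes. INSIG1 had the largest difference of the list (-2.08, SE 0.092, edgeR adjusted p 2.55e-27), since it was 1.65-fold higher at 6 h and 2.56-fold lower at 24 h. MSMO1 followed among the enzymes (-1.64, adjusted p 1.85e-25), and SREBF2 differed by -0.88 (adjusted p 9.5e-19). INSIG2 did not pass this test (-0.20, adjusted p 0.0896) and was lower at both times, but passed it once replicate 3 of GNF-7 6 h (-0.28) or replicate 2 of vehicle 24 h (-0.26) was left out. The difference of ABCA1 was 0.38 (SE 0.098, adjusted p 0.00169), and that of MYLIP was 0.08 (adjusted p 0.719). The call of ABCG1 (adjusted p 0.0245) was lost when any 1 of replicate 1 of senescent vehicle 6 h, replicates 1 and 3 of vehicle 24 h and replicate 3 of GNF-7 24 h was left out, with adjusted p from 0.0507 to 0.665. That of CYP51A1 was lost without GNF-7 6 h replicate 1 (-0.75) and that of SCAP without replicate 2 of vehicle 6 h (-0.15) or replicate 3 of GNF-7 6 h (-0.17).

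Part of what separates the times lay in the vehicle. Between 6 h and 24 h in vehicle, 13 of the 19 synthesis genes rose, none fell and 6 did not pass the test, with a median log2 fold change of 0.30 against 0.01 over all genes. Of the 31 genes 16 were called higher and 3 lower (SREBF1, SOAT1 and ABCA1), where 9.26% of all genes were called higher, 9.29% lower and 18.5% either way. MSMO1 had the largest rise of the enzymes, from 54.3, 52.1 and 54.2 CPM to 82.8, 71.2 and 77.0 (0.53, adjusted p 1.53e-11). CYP51A1 had the lowest value and was not called, at 3.21, 2.56 and 2.50 CPM against 2.27, 2.29 and 2.44 (-0.24, adjusted p 0.512). INSIG1 rose by 0.68 (SE 0.063, adjusted p 6.23e-13), STARD4 by 0.57 (adjusted p 2.05e-11) and SREBF2 by 0.23 (adjusted p 2.2e-05), while ABCA1 fell by 0.42 (SE 0.072, adjusted p 7.28e-06). INSIG1 held 42.6 ± 1.86 CPM with GNF-7 at 6 h and 41.4 ± 3.25 CPM in vehicle at 24 h, and these libraries overlapped. Scaling by total counts moved the median of all genes in this comparison by -0.11 and the share of calls that were higher from 49.9% to 12.5%. The list then held 13 genes called higher and 4 lower, and the calls of MVD, NSDHL and EBP were lost (0.13, 0.19 and 0.25). MVD also lost its call without replicate 2 of senescent vehicle 6 h (0.19) or of vehicle 24 h (0.20), NSDHL without vehicle 6 h replicate 2 (0.22), and EBP without vehicle 24 h replicate 3 (0.31). DHCR7 (0.18, adjusted p 0.136) passed the test once replicate 1 of vehicle 6 h (0.27) or replicate 2 of vehicle 24 h (0.24) was left out. It also passed with all libraries and no filter on low counts (0.17).

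The comparisons share libraries: senescent vehicle 6 h enters the comparison with cycling cells, that of GNF-7 at 6 h and that of the vehicle times, and vehicle 24 h enters the last and that of GNF-7 at 24 h. The libraries with GNF-7 at 24 h were therefore also set beside the other groups by their CPM. For 14 of the 19 synthesis genes every GNF-7 24 h library lay below every senescent vehicle 6 h library, where 31.5% of all genes did, and for PMVK and GGPS1 every one lay above, where 34.3% did. FDFT1, TM7SF2 and HSD17B7 overlapped. Against cycling cells 17 of the 19 lay below, where 37.9% of all genes did, GGPS1 lay above, where 43.0% did, and TM7SF2 overlapped. SQLE held 97.0 ± 0.940 CPM in cycling cells, 38.9 ± 3.71 in senescent vehicle 6 h and 16.4 ± 0.502 with GNF-7 at 24 h. ABCA1 held 8.80 ± 1.36, 29.2 ± 1.04 and 38.9 ± 2.05 CPM in the same groups.

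Per length of exon, the order of the 31 genes changed between groups. FDPS (47.4 CPM per kb), MSMO1 (39.6) and SREBF2 (37.7) were the highest in cycling cells, and DHCR7 and FDFT1 followed at 31.6 each. In senescent vehicle 6 h cells NR1H2 (24.1 CPM per kb) and SREBF2 (23.5) led, ahead of FDPS (19.4) and MSMO1 (18.5), and with GNF-7 at 24 h NR1H2 (23.8) led FDPS (15.3), SREBF2 (14.6) and FDFT1 (13.5). The level of ABCA1 on this scale was 0.776 CPM per kb in cycling cells, 2.57 in senescent vehicle 6 h, 3.54 with GNF-7 at 6 h, 1.91 in vehicle 24 h and 3.43 with GNF-7 at 24 h. It stayed below the enzymes named here in every group. FDPS has many processed pseudogenes, which may take or give some of its reads.

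Other genes of cholesterol handling formed a list of 52, of which 50 passed the filter on low counts (CH25H and PLTP did not). Their calls were more divided between higher and lower than those of the synthesis enzymes, except with GNF-7 at 6 h. In senescence 23 were called higher and 20 lower, where 35.6% and 34.4% of all genes were. With GNF-7 at 6 h 4 were called higher and 20 lower (17.9% and 21.4% of all genes), and at 24 h 8 and 27 (29.3% and 29.7%). In the difference of the effects 6 were higher and 19 lower (12.8% and 18.0%), and between the vehicle times 7 and 6 (9.26% and 9.29%). Of the 14 among them that act in sterol synthesis and its regulation, 13 were lower and 1 higher with GNF-7 at 24 h, where 29.7% and 29.3% of all genes were. LBR, a sterol reductase that is also a nuclear envelope protein, fell in senescence (-1.98, adjusted p 4.8e-43), and ERLIN1, of an endoplasmic reticulum complex that acts in sterol-driven degradation, fell with GNF-7 at 24 h (-0.98, adjusted p 8.97e-29).

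Of the 11 genes of uptake and endosomal transport, 6 were called higher and 3 lower in senescence (35.6% and 34.4% of all genes), 2 and 6 with GNF-7 at 6 h (17.9% and 21.4%), and 2 and 6 with GNF-7 at 24 h (29.3% and 29.7%). The 2 that rose with GNF-7 were the same at both times, NPC1 and VLDLR. NPC1, which exports cholesterol from lysosomes, held 367 ± 4.20 CPM in senescent vehicle 6 h and 625 ± 15.9 with GNF-7 (0.77, adjusted p 1.19e-28), and 318 ± 4.57 in vehicle 24 h and 630 ± 12.1 with GNF-7 (0.99, adjusted p 1.29e-34). VLDLR, a lipoprotein receptor, held 24.6 ± 1.52 and 48.2 ± 3.16 CPM at 6 h (0.98, adjusted p 1.01e-20) and 27.2 ± 1.36 and 48.3 ± 2.98 at 24 h. LRP1, another receptor, rose in senescence (2.14, adjusted p 1.03e-49) and was not called with GNF-7 at 6 h (-0.08, adjusted p 0.0686) or 24 h (-0.08, adjusted p 0.0526). Among 8 genes of transport within the cell, GRAMD1B, which carries cholesterol from the plasma membrane to the endoplasmic reticulum, held 130 ± 3.92 CPM in vehicle and 363 ± 6.02 with GNF-7 at 6 h (1.49, adjusted p 1.1e-40). It fell to 61.6 ± 2.59 CPM in vehicle 24 h, with 108 ± 3.43 with GNF-7 (0.80, adjusted p 1.18e-25). Of the 9 tested genes of oxysterols and LXR other than the 31, 8 were called higher and 1 lower in senescence (35.6% and 34.4% of all genes). None was higher and 2 were lower with GNF-7 at 6 h (17.9% and 21.4%), and 1 was higher and 3 were lower at 24 h (29.3% and 29.7%), the last near the share of all genes. NPC1, VLDLR and LRP1 overlap genes on the other strand. So do ACAT2, HMGCS1, MVK, IDI1, FDPS, GGPS1, FDFT1, LSS, CYP51A1, STARD4, SREBF1, SREBF2 and NR1H3. Whether counting used strand is not given in the sources used here.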

How the data were processed

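The authors deposited 1 table of raw counts per Ensembl gene for 15 libraries, with no normalization. Per the submitters' processing notes, bcl2fastq 2.20.0.422, STAR 2.7.9a, featureCounts 1.5.1 and the build GRCh38 were used, and per the labels' protocols a stranded mRNA kit. The annotation release and the strand setting are not given in the sources used here. Of 60673 rows, 3 that broke 1 gene entry over 3 lines were left out (at most 0.00475% of a library). All 31 identifiers were matched to symbols through the gene name table, as were 60400 of 60670 in all. Coordinates and exon lengths are those of GENCODE 29.

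Groups came from titles and time labels. The 18563 genes that passed filterByExpr were fitted over all 15 libraries with edgeR 4.0.16 in R 4.3.3 (TMM, robust quasi-likelihood F test, Benjamini-Hochberg adjustment over all genes, called under 0.05). The biological coefficient of variation was 4.64%. The fits were also run on simulated counts, in which far fewer genes changed than were called here. That run does not check the scaling or the error rate in these data. Alternatives were other scalings and filters (a mean of 5 CPM among them), DESeq2 1.42.0, limma voom 3.58.1, a fit of only the groups compared, the replicate block, and leaving out each library. Replicate numbers share no stated batch, so no block was used.

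The 31 genes and all lists were chosen with earlier results of these data known. Values per library are given for 15 genes picked by role and for the synthesis genes with the largest and smallest log2 fold change of each comparison, and of the pathway list at most the 4 genes with the smallest adjusted p. Per-library values of further members were added after their values were seen.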

Additional observations from a re-analysis of the deposited data

Results flagged for a closer look

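The effect of GNF-7 against its own vehicle differed between 24 h and 6 h, by the interaction term of the edgeR fit (adjusted p under 0.05), for 23 of the 31 genes, where 30.8% of all genes were called. ABCG1, one of the 23, passed the filter on low counts through the GNF-7 24 h libraries alone, so its call is a description. Differences are the log2 fold change at 24 h minus that at 6 h. In synthesis they were -1.64 for MSMO1, -1.37 for ACAT2, -1.24 for SQLE, -1.20 for IDI1, -1.10 for CYP51A1, -1.06 for MVK, -1.02 for HMGCS1, -0.89 for DHCR7, -0.86 for EBP, -0.78 for SC5D, -0.72 for LSS, -0.69 for HSD17B7, -0.64 for NSDHL, -0.61 for FDFT1, -0.55 for FDPS and -0.38 for MVD. In sensing and transport they were -2.08 for INSIG1, -1.03 for STARD4, -0.88 for SREBF2, -0.46 for SREBF1 and -0.20 for SCAP. In efflux they were 0.38 for ABCA1 and 3.72 for ABCG1, the last a fitted value that depends on the prior count because its vehicle libraries held 0 to 6 counts, and that ran from 1.75 to 7.32 when 1 library was left out.

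INSIG1, FDFT1, HSD17B7, ACAT2, MSMO1 and SREBF1 were called higher at 6 h and lower at 24 h. The share of all genes with this pair of calls was not computed. Of all genes, 17.9% were called higher at 6 h and 29.7% lower at 24 h. The 6 h calls of ACAT2, MSMO1 and SREBF1 and the 24 h call of HSD17B7 were lost in some of the alternatives. The share of counts from mitochondrial genes and the proliferation markers also differed between the groups compared, and their part was not tested.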

How the results depend on the processing

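Over 24 alternatives, 3001 of 3088 values of single genes kept their direction and their side of the threshold, 48 kept their direction but lost a call, 9 gained one and 30 changed sign, all 30 among values that were not called. The median over the synthesis genes moved when genes under a mean of 5 CPM were filtered out, which drops CYP51A1 and ABCG1 and shifts the median of all genes by 0.15 in senescence and 0.10 with GNF-7 at 24 h. It was then -0.78 in senescence, 0.0945 with GNF-7 at 6 h, -0.70 at 24 h and -0.70 for the difference, and 4 genes were called higher in senescence. With total counts it was -0.88 in senescence and 0.19 between the vehicle times. Without a filter 4 genes were called higher with GNF-7 at 6 h.

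Leaving out 1 library gave 4 to 7 genes called higher and 3 to 6 lower with GNF-7 at 6 h, 1 to 2 higher for the difference, a synthesis median of 0.0058 to 0.0899 at 6 h and of -0.927 to -0.866 at 24 h. Sign changes were IDI1 at 6 h (0.0416 with the 5 CPM filter, 0.0038 in a fit of only the groups compared, 0.0014 with total counts, -0.0339 to 0.0271 without 1 library), SREBF2 at 6 h (0.0043 with the 5 CPM filter), and INSIG2 in senescence (0.10 with that filter, 0.0828 with total counts) and between the vehicle times (-0.0666 with total counts, -0.0045 to 0.10 without 1 library). MYLIP between the vehicle times was -0.0576 to 0.0188 without 1 library. NR1H3 for the difference was 0.0179 with the 5 CPM filter and -0.13 to 0.13 without 1 library, and in senescence -0.0602 to 0.0764 without 1 library. Between the vehicle times NR1H3 was -0.0039 with limma voom, -0.0027 without mitochondrial genes in the scaling, -0.0073 without a filter, -0.00051 in a fit of only these groups, -0.11 with total counts, -0.0018 with the replicate block and -0.15 to 0.10 without 1 library. ABCG1 without 1 library was -0.43 to 2.13 in senescence and -4.27 to 1.29 between the vehicle times, with the sign changes without senescent vehicle 6 h replicate 1. In these cases the cause was not tested.

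Correlations of same-numbered deviations ran from -0.0386 to 0.0541 over 30 pairs, and 7 of 15 libraries correlated best with their own number. Between libraries of different numbers and groups they ran from -0.0662 to 0.0389. Among the senescent groups, pairs of replicate 1 ran from -0.000598 to 0.0541 and pairs of replicate 2 from 0.00507 to 0.0367. Those of replicate 3 ran from -0.0246 to 0.0166. Whether libraries of the same number were prepared together was not tested. With the replicate block, 13032 genes in place of 12999 were called in senescence, 7481 in place of 7286 with GNF-7 at 6 h, 11031 in place of 10940 at 24 h, 5921 in place of 5723 for the difference and 3711 in place of 3443 between the vehicle times. Of the 31 genes, the block changed only the number higher between the vehicle times, 17 in place of 16. The median over the 3 efflux genes was planned but not run, since ABCG1 held 0 to 6 counts in 4 of the 5 groups, and that depth also limits its ratios.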
